A study of Mus musculus with 38 samples.

Results

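The elements described here are the ERVB, ETn/MusD and RLTR45 families of mouse endogenous retroviruses, taken as all copies of the ERVK class in the deposited tables whose family name starts with ERVB, ETnERV, MMETn or RLTR45. They came to 15829 copies in 27 families, out of 3793386 transposable element (TE) copies in 1241 families. The families fall into 4 groups by name: 4 internal families of ETn/MusD elements (4543 copies), 8 internal families of ERVB elements (3431 copies), 13 families of ERVB long terminal repeats, the promoter-bearing ends known as LTRs (5371 copies), and RLTR45 with its internal part RLTR45-int (2484 copies).

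ERVK elements are class II endogenous retroviruses, related to betaretroviruses, that moved through the genome by reverse transcription. MusD elements carry the genes for their own mobility, and ETn elements, which lack them, are copied with the help of MusD proteins and are a known source of new insertional mutations in laboratory mice. In embryonic stem cells such elements are held silent by KRAB zinc finger proteins that recruit TRIM28 and SETDB1, which place H3K9me3 on the chromatin. The nuclear lamina is the meshwork of lamins under the inner nuclear membrane, where the lamin B receptor (LBR) and LAP2B are membrane-bound proteins that contact chromatin. In naive mouse embryonic stem cells the study found lamina-bound chromatin to carry mainly H3K9me2, with H3K9me3 on only part of it.

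CUT&RUN, in which an antibody-tethered nuclease releases the DNA beside a protein, had been run in naive mouse embryonic stem cells (naive mESC) and in epiblast-like cells (EpiLC) grown from them. LAP2B was profiled in 4 genotypes at each stage: WT, LBRKO (no LBR), TKO (no lamins) and QKO (neither lamins nor LBR). LMNB1 and a non-specific antibody (IGG) were profiled in WT cells only, and every group held 3 libraries, 36 in all. Per the study's methods, LBRKO clones were made from the WT cells and a single QKO clone from the TKO cells, the WT and TKO lines are separate and had chromosome abnormalities in some or all cells, and part of the stretch of LAP2 against which the antibody was raised is shared with a form that has no membrane anchor. The study saw only a band of the size of LAP2B on immunoblots and concluded that the antibody prefers the membrane form. Nothing in the labels says that the libraries of a group came from separate clones, so spreads and p-values measure differences between libraries.

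Signal summed over the copies of these families corresponded to 203676 to 462736 reads per LAP2B library, 467227 to 596909 per LMNB1 library and 185178 to 641206 per IGG library. A read counts here once for every copy whose bins hold it, so these are not numbers of distinct reads. The family with the fewest reads had 179 to 573 of them in a LAP2B library, and 0.752% to 4.50% of the copies were at 0. Shared bins mean that copies are not independent: 2898 of the copies had all 36 values in common with another, leaving 14252 distinct sets of values. Below, the relative level of a family is the mean over its copies divided by the library's median TE family, so that 1 is the level of that median family, and the spike-in level is the deposited value. A deposited value grows with the length of a copy, so LAP2B and LMNB1 levels of different families are compared only after division by IGG.

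WT cells were examined first for the level of LAP2B and LMNB1 over IGG at these families. The study describes LAP2B signal of EpiLCs as lying outside lamina-associated domains as well as within them, so LAP2B there is not a measure of the lamina alone. In naive cells the strongest LAP2B signal over IGG among the 27 families belonged to ERVB4_3-I_MM, ERVB7_3-LTR_MM and ERVB4_3-LTR_MM, and the weakest to MMETn-int and ETnERV-int. The log2 ratio of relative LAP2B to relative IGG was 0.37 ± 0.02 (SD, n = 3) at ERVB4_3-I_MM, which placed it at percentile 97.7 of the 1241 families. It was 0.37 ± 0.03 at ERVB7_3-LTR_MM and 0.35 ± 0.06 at ERVB4_3-LTR_MM, at percentiles 97.4 and 96.7. At the other end were MMETn-int with −0.18 ± 0.10 and ETnERV-int with −0.17 ± 0.13, at percentiles 13.0 and 13.9. In EpiLCs the lowest was ERVB3_1-LTR_MM, at percentile 4.75, followed by ETnERV-int at 6.37. The median of the 27 families stood at percentile 59.5 in naive cells and 69.1 in EpiLCs, and 9 and 12 of the families were above percentile 75 at these stages, against 4 below percentile 25 at either stage.

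LMNB1, a lamin itself, placed several of the families in a similar position. ERVB4_3-LTR_MM had the highest naive LMNB1 over IGG among the 27, at percentile 99.3, followed by ERVB7_3-LTR_MM at 91.0, ERVB2_1-I_MM at 88.7 and ERVB4_3-I_MM at 87.3. ETnERV-int was the lowest at 10.4. The ETn/MusD internal families did not behave as a block: ETnERV2-int and ETnERV3-int were at percentiles 83.8 and 84.8 for LMNB1, and MMETn-int was at 29.9. LAP2B and LMNB1 differed in rank for ETnERV3-int, whose naive LAP2B over IGG was at percentile 54.1. No test was made of these ranks.

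IGG signal itself, which also grows with the length of a copy, was examined for each family. In naive WT cells it was 2.07 times the median family at ETnERV-int and 2.06 times at MMETn-int, and 20.6% and 24.2% of their copies were above percentile 99 of all TE copies for IGG at one stage or the other. The corresponding shares were 12.7% for ERVB4_2-I_MM, 9.14% for ETnERV3-int, 8.34% for RLTR45-int and 2.65% for ETnERV2-int. No IGG library was made from mutant cells, so the part of background in a difference between genotypes was not tested. Leaving these copies out kept every count of called families given below within 1.5 times. It leaves the background of all other copies in place, so it does not answer that question.

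Loss of LBR lowered relative LAP2B at most of these families in naive cells. With limma's moderated test, 23 of 27 families were lower in LBRKO than in WT at an adjusted p under 0.05 and 1 was higher, where 41% of all 1241 TE families were called lower and 30.5% higher. The median change over the 27 families was −0.36 (log2), against −0.03 over all families. In 23 of the families all LBRKO libraries lay below all WT libraries, a count that was not made over all TE families. All 8 ERVB internal families, all 4 ETn/MusD internal families, both RLTR45 families and 9 of 13 ERVB LTR families were called lower, with medians of −0.44, −0.40, −0.29 and −0.23. That most families were lower held when libraries were divided by the mean copy (25 lower, as were 609 of all 1241 families) or by the median gene (26 lower, as were 1075 of all families) in place of the median family.

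The falls with the largest size were at ERVB4_3-I_MM and ERVB4_1-I_MM. ERVB4_3-I_MM had relative LAP2B of 2.06, 2.08 and 2.13 in the naive WT libraries and of 1.16, 1.21 and 1.18 in the LBRKO libraries. The LBRKO values were well below the WT values, and the change was −0.77 ± 0.07 (SE; adjusted p = 9.8e-09). ERVB4_1-I_MM went from 1.37, 1.36 and 1.46 to 0.766, 0.921 and 0.817, a change of −0.68 ± 0.05 (adjusted p = 1.1e-09). ERVB4_2-I_MM, an internal family of the same ERVB4 series, had 1.85, 1.72 and 2.00 in WT and 1.28, 1.49 and 1.29 in LBRKO, a change of −0.43 ± 0.05 (adjusted p = 9.5e-07), again without overlap between the groups.

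The ETn/MusD internal families fell by different amounts. ETnERV3-int had relative LAP2B of 1.60, 1.58 and 1.69 in naive WT and of 1.07, 1.08 and 1.06 in naive LBRKO, a change of −0.56 ± 0.04 (adjusted p = 2.5e-09). ETnERV2-int had 1.23, 1.22 and 1.29 against 0.851, 0.878 and 0.848, a change of −0.49 ± 0.03 (adjusted p = 6.0e-10). The LBRKO libraries of both lay below every WT library. The falls were smaller at ETnERV-int, with 1.87, 1.66 and 1.97 against 1.38, 1.53 and 1.47 (−0.31 ± 0.06, adjusted p = 1.5e-04), and at MMETn-int, with 1.85, 1.70 and 1.95 against 1.49, 1.48 and 1.53 (−0.27 ± 0.05, adjusted p = 4.1e-05), although the groups again did not overlap. RLTR45-int, the internal part of RLTR45 elements, had 1.60, 1.51 and 1.68 in WT and 1.24, 1.25 and 1.19 in LBRKO, a change of −0.36 ± 0.04 (adjusted p = 8.6e-08).

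The exception was ERVB3_1-LTR_MM, an LTR family of 147 copies. Its relative LAP2B was 1.12, 1.06 and 1.11 in naive WT and 1.24, 1.28 and 1.41 in LBRKO, a rise of 0.23 ± 0.05 (adjusted p = 3.1e-04) that became −0.10 when libraries were divided by the median gene. Its internal partner by name, ERVB3_1-I_MM, was among the families that fell, with −0.16 ± 0.05 (adjusted p = 6.0e-03). WT LAP2B over IGG at this LTR family was at percentile 20.1.

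Among other ERVK families, 166 of 258 were called lower in naive LBRKO, with a median of −0.15. All 25 IAP families, the intracisternal A particles of the same class, were lower with a median of −0.43, and 18 of 23 RLTR13 families were lower with a median of −0.28. The ETn LTR family RLTRETN did not pass the test, with a change of −0.04. In naive TKO 123 of the other ERVK families, 15 IAP and 9 RLTR13 families and RLTRETN (0.20) were called higher on the relative scale. No test compared these lists with the 27 families.

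**Figure D1:**
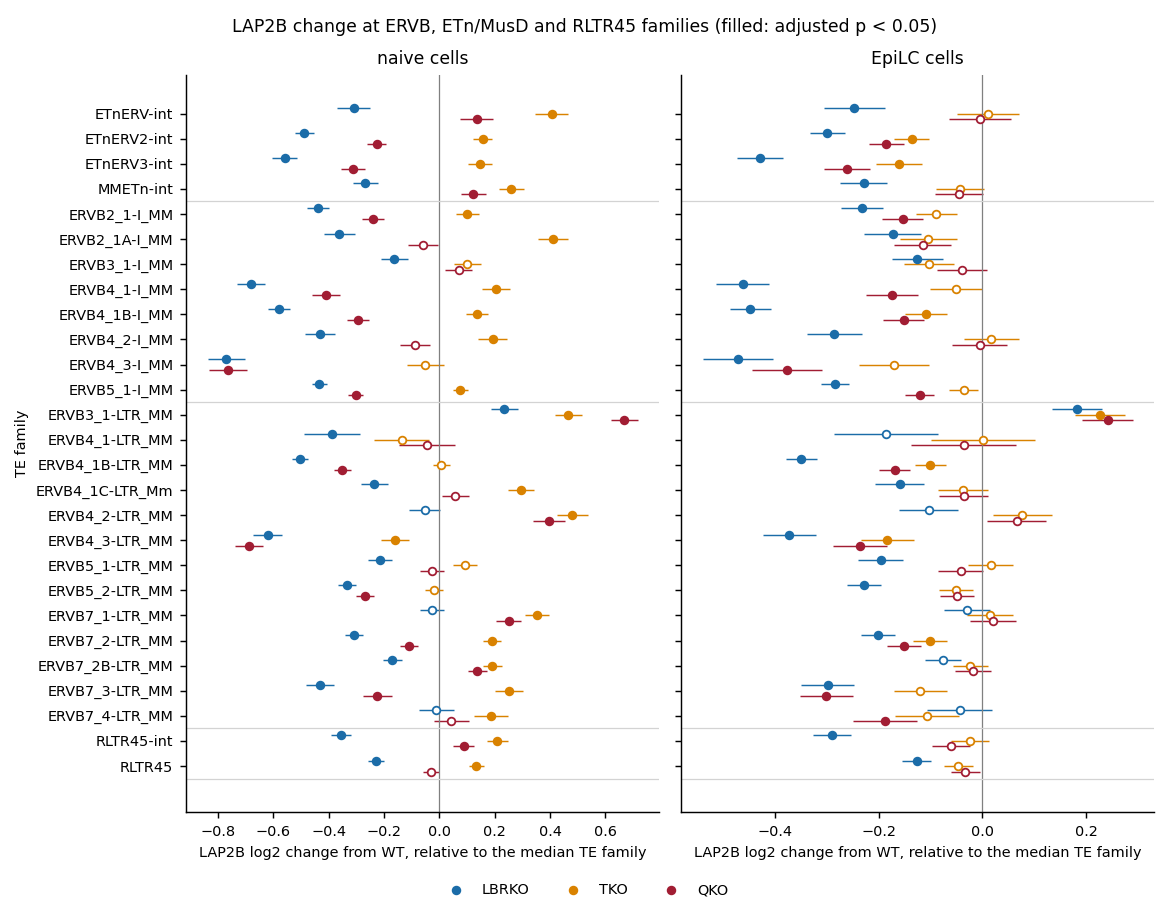
Change in relative LAP2B from WT (log2, x axis) for each of the 27 families (rows, separated by lines into ETn/MusD internal, ERVB internal, ERVB LTR and RLTR45 families) in naive cells (left) and EpiLCs (right), with bars for the SE from limma and filled points where the adjusted p was under 0.05. LBRKO points lie left of 0 for 26 of 27 families at both stages, naive TKO points lie right of 0 for 23 families on this scale (dividing by the median gene in place of the median family turned this to the left, with 24 called lower and 0 higher, as it did for 1177 of all 1241 families), and naive QKO points spread from −0.76 to 0.67.

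LBRKO was compared with WT in EpiLCs in the same way. LAP2B was called lower in LBRKO at 21 of 27 families and higher at 1, beside 28.8% and 18.3% of all families, and the median change was −0.23. ERVB4_3-I_MM had 2.06, 1.79 and 1.99 in EpiLC WT against 1.34, 1.37 and 1.41 in LBRKO (−0.47 ± 0.07, adjusted p = 1.9e-05), and ERVB4_1-I_MM had 1.43, 1.31 and 1.48 against 0.976, 1.01 and 0.991 (−0.46 ± 0.05, adjusted p = 1.5e-06). No LBRKO library reached a WT library at either family. ETnERV3-int had 1.90, 1.82 and 1.74 against 1.29, 1.36 and 1.33 (−0.43 ± 0.04, adjusted p = 1.1e-06). ETnERV2-int had 1.25, 1.20 and 1.21 against 0.955, 0.975 and 0.992 (−0.30 ± 0.03, adjusted p = 2.0e-06). ETnERV-int had 1.82, 1.90 and 2.00 against 1.54, 1.59 and 1.62 (−0.25 ± 0.06, adjusted p = 2.4e-03). MMETn-int had 1.98, 1.99 and 2.06 against 1.67, 1.71 and 1.72 (−0.23 ± 0.05, adjusted p = 5.1e-04). From ETnERV3-int to MMETn-int, the 4 ETn/MusD families came in the same order as in naive cells. RLTR45-int had 1.56, 1.5 and 1.53 against 1.23, 1.25 and 1.22 (−0.29 ± 0.04, adjusted p = 6.8e-06). ERVB4_2-I_MM had 1.75, 1.73 and 1.91 against 1.46, 1.43 and 1.49 (−0.29 ± 0.05, adjusted p = 2.8e-04). The groups did not overlap at any of these families. ERVB3_1-LTR_MM was again higher, with 0.952, 0.991 and 0.957 in WT and 1.15, 1.08 and 1.11 in LBRKO (0.18 ± 0.05, adjusted p = 5.0e-03), a call that was lost with the median gene as divisor (0.13).

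Absence of the lamins had the opposite direction in naive cells on the relative scale. In TKO, 20 of 27 families were called higher than WT and 1 lower, beside 32.6% and 20.5% of all families, with a median of 0.19 against 0.02. When libraries were divided by the median gene, the counts were 0 higher and 24 lower, with 1177 of all 1241 families lower and a median over all of −0.46. With the mean copy they were 11 and 5, while all families had 151 and 645. With the median over copies they were 10 and 0, and counts over all families are not given for that setting, here or below. A rise is therefore meant against the other TE families of the library and not as a gain of LAP2B. Among the ETn/MusD families, ETnERV-int had 2.55, 2.24 and 2.60 in TKO, above all WT libraries (0.41 ± 0.06, adjusted p = 3.2e-05), and MMETn-int had 2.31, 2.01 and 2.31, also above (0.26 ± 0.05, adjusted p = 1.7e-04). ETnERV2-int had 1.44, 1.29 and 1.47 (0.16 ± 0.03, adjusted p = 8.9e-04) and ETnERV3-int had 1.84, 1.68 and 1.91 (0.15 ± 0.04, adjusted p = 9.3e-03), both with 1 TKO library within the range of WT. All 4 changes were negative with the median gene as the divisor.

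In naive TKO the changes ran from −0.16 to 0.48 over the ERVB families and from 0.15 to 0.41 over the ETn/MusD internal families. The ERVB families are more numerous, so these ranges do not compare their spread. Both RLTR45 families were called higher, by 0.13 and 0.21, on the relative scale (0 of the 27 families were higher with the median gene). The rises with the largest size were at ERVB4_2-LTR_MM, with 1.29, 1.14 and 1.29 in WT against 1.84, 1.65 and 1.83 in TKO (0.48 ± 0.06, adjusted p = 3.0e-06), and at ERVB3_1-LTR_MM, with 1.64, 1.44 and 1.58 in TKO (0.47 ± 0.05, adjusted p = 8.9e-07). Both were close to 0 with the median gene, at −0.01 and −0.02. ERVB4_2-I_MM had 2.15, 2.05 and 2.20 (0.19 ± 0.05, adjusted p = 5.6e-03), and RLTR45-int had 1.93, 1.78 and 1.87 (0.21 ± 0.04, adjusted p = 1.6e-04), both above all WT libraries but negative with the median gene. ERVB4_3-LTR_MM was the family called lower, with 1.21, 1.24 and 1.14 in WT against 1.07, 1.02 and 1.1 in TKO (−0.16 ± 0.05, adjusted p = 0.013). ERVB4_3-I_MM had 2.02, 1.73 and 2.32 in TKO, a range that takes in all 3 WT values, and did not pass the test (adjusted p = 0.55).

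In EpiLCs fewer families passed the test for TKO. LAP2B was lower in TKO at 6 of 27 families and higher at 1, beside 17.9% and 14% of all families, with a median of −0.05. ETnERV3-int had 1.61, 1.58 and 1.66 (−0.16 ± 0.04, adjusted p = 9.2e-03) and ETnERV2-int had 1.1, 1.09 and 1.11 (−0.14 ± 0.03, adjusted p = 4.7e-03), below every WT library. ETnERV-int had 1.97, 1.90 and 1.88 and MMETn-int had 1.99, 1.88 and 1.98, both overlapping WT. So did ERVB4_2-I_MM with 1.84, 1.83 and 1.79, RLTR45-int with 1.52, 1.46 and 1.52, and ERVB4_3-I_MM with 1.83, 1.68 and 1.65. ERVB4_3-LTR_MM was lower again, from 1.21, 1.1 and 1.02 to 0.967, 0.932 and 0.996 (−0.18 ± 0.05, adjusted p = 0.01), and ERVB3_1-LTR_MM was higher again, with 1.15, 1.13 and 1.17 (0.23 ± 0.05, adjusted p = 1.7e-03), which did not pass with the median gene (0.044). The count of 7 calls was 2 without EpiLC WT replicate 1, 4 without EpiLC WT replicate 3, TKO replicate 2 or TKO replicate 3, 0 with the median over copies, and 24, all lower, with the median gene, by which 914 of all 1241 families were lower.

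Cells without lamins and LBR were compared with WT next. In naive QKO cells, 12 of 27 families were called lower and 7 higher, beside 41.4% and 37.8% of all families, and the median change was −0.06. The share called lower was near that of all families, and with the mean copy or the median gene as divisor nearly all of the 27 were lower. The 12 lower families were at percentiles 54.1 to 97.7 of naive WT LAP2B over IGG and the 7 higher ones at 13.0 to 59.5, although WT LAP2B enters both values. ERVB4_3-I_MM had 1.19, 1.20 and 1.18 (−0.76 ± 0.07, adjusted p = 5.9e-09) and ERVB4_3-LTR_MM had 0.676, 0.773 and 0.671 (−0.69 ± 0.05, adjusted p = 5.7e-10), each far below WT. ETnERV3-int had 1.22, 1.36 and 1.28 (−0.31 ± 0.04, adjusted p = 3.4e-06) and ETnERV2-int had 1.03, 1.07 and 1.04 (−0.23 ± 0.03, adjusted p = 6.2e-06), also without overlap. The other ETn/MusD families went the other way on this scale: ETnERV-int had 2.08, 1.88 and 2.11 (0.14 ± 0.06, adjusted p = 0.045) and MMETn-int had 2.07, 1.95 and 1.97 (0.12 ± 0.05, adjusted p = 0.02). Both turned to falls with the mean copy (−0.12 and −0.13) or the median gene (−0.57 and −0.59). These QKO values were close to relative IGG in naive WT, 2.09, 2.03 and 2.07 at ETnERV-int and 2.04, 2.01 and 2.15 at MMETn-int. At ETnERV3-int and ETnERV2-int mean relative IGG was 1.61 and 1.13, above the relative QKO values. Each antibody has its own median family as divisor, so this does not place LAP2B below IGG. Deposited naive QKO LAP2B was 0.227, 0.223 and 0.235 at ETnERV3-int, where naive WT IGG was 0.203, 0.134 and 0.228. At ETnERV2-int it was 0.192, 0.176 and 0.190, where IGG was 0.145, 0.0964 and 0.157. The part of background in the split of the ETn/MusD families was not tested.

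ERVB3_1-LTR_MM had the largest rise of the 27 in naive QKO, with 1.95, 1.68 and 1.79 against at most 1.12 in WT (0.67 ± 0.05, adjusted p = 4.2e-10). ERVB4_2-LTR_MM followed with 1.81, 1.51 and 1.69 (0.40 ± 0.06, adjusted p = 4.0e-06). With the median gene as divisor these changes were −0.03 and −0.30. RLTR45-int had 1.78, 1.61 and 1.72, which overlapped WT (0.09 ± 0.04, adjusted p = 0.036), and turned to −0.14 with the median over copies, −0.17 with the mean copy and −0.62 with the median gene. ERVB4_2-I_MM had 1.71, 1.69 and 1.82, which overlapped WT and did not pass the test. Over all 27 families, division by the mean copy gave 24 lower and 2 higher, while 915 of all 1241 families were lower, and division by the median gene gave 26 lower and 0 higher, while 1166 of all were lower.

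In EpiLC QKO, 12 of 27 families were lower and 1 higher, beside 26.3% and 21.1% of all families, with a median of −0.06. ERVB4_3-I_MM had 1.46, 1.43 and 1.54 (−0.38 ± 0.07, adjusted p = 1.7e-04) and ERVB7_3-LTR_MM went from 1.38, 1.25 and 1.31 to 1.08, 1.03 and 1.03 (−0.30 ± 0.05, adjusted p = 1.0e-04). ETnERV3-int had 1.46, 1.47 and 1.58 (−0.26 ± 0.04, adjusted p = 1.0e-04) and ETnERV2-int had 1.08, 1.05 and 1.06 (−0.19 ± 0.03, adjusted p = 2.1e-04). None of these QKO libraries reached the WT range. ETnERV-int had 1.95, 1.86 and 1.88, ERVB4_2-I_MM had 1.83, 1.77 and 1.77, MMETn-int had 1.97, 1.94 and 1.93, and RLTR45-int had 1.46, 1.48 and 1.45, none of which passed the test. ERVB3_1-LTR_MM had 1.15, 1.19 and 1.14 (0.24 ± 0.05, adjusted p = 5.8e-04), a rise that was −0.01 with the median gene. The median over copies in place of the mean left 3 families called, all lower, with no count over all families given. Division by the mean copy gave 18 lower and 1 higher, beside 549 and 134 of all 1241 families. Division by the median gene gave 26 lower and 0 higher, beside 1076 and 15 of all.

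**Figure D2:**
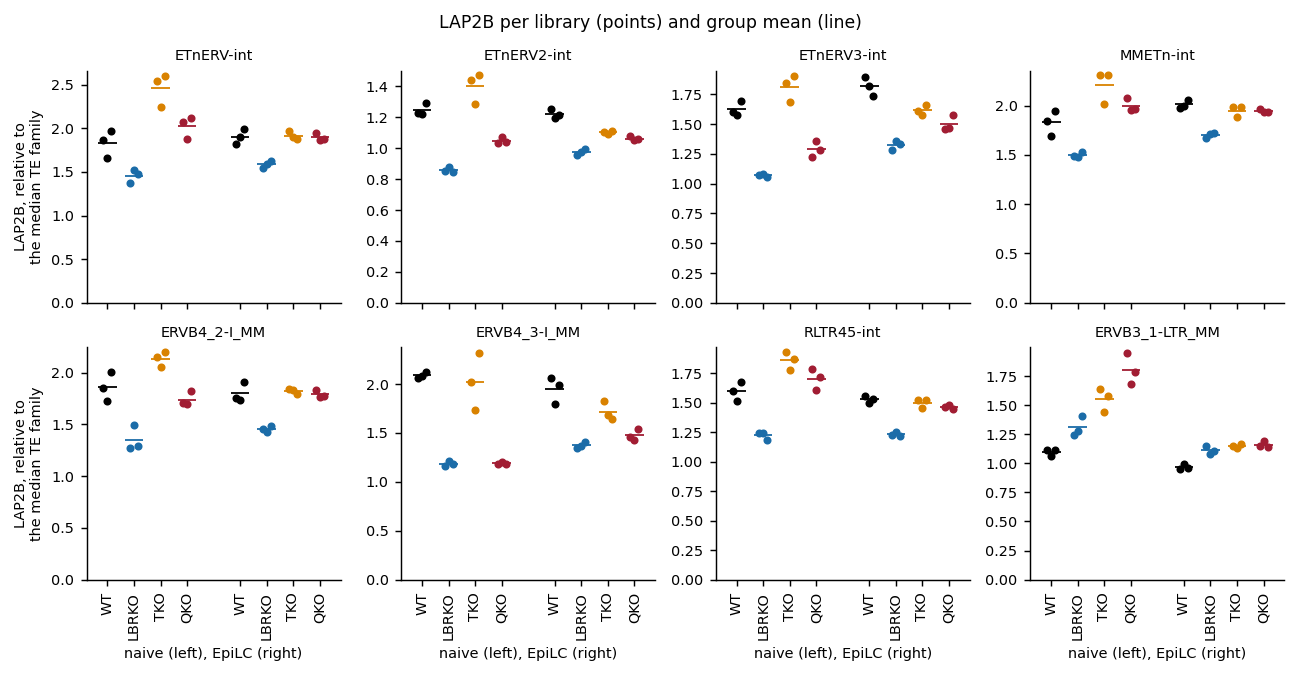
Relative LAP2B (y axis, 1 is the library's median TE family) in every library (points) with the group mean (lines) for 8 families, with the naive groups on the left of each panel and the EpiLC groups on the right. LBRKO libraries lie below WT in every panel but that of ERVB3_1-LTR_MM, and in naive cells QKO lies near LBRKO for ERVB4_3-I_MM and near WT or above it for ETnERV-int and MMETn-int (below WT with the mean copy or the median gene as divisor).

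The mutants were also compared with each other. In naive cells QKO was lower than TKO at 21 of 27 families and higher at 1, beside 37.2% and 30.1% of all families, with a median of −0.27. The change was −0.71 ± 0.07 at ERVB4_3-I_MM (adjusted p = 3.8e-08), −0.46 ± 0.04 at ETnERV3-int (adjusted p = 4.8e-08) and −0.12 ± 0.04 at RLTR45-int (adjusted p = 6.4e-03). QKO was higher than LBRKO at 23 families and lower at 0, beside 37.2% and 24.7% of all families, with a median of 0.26, and by 0.44 ± 0.06 at ETnERV-int (adjusted p = 5.0e-06) and 0.44 ± 0.04 at RLTR45-int (adjusted p = 2.1e-08). The exceptions included ERVB4_3-I_MM, where the difference between QKO and LBRKO was 0.01 ± 0.07 (adjusted p = 0.95). These divisors shift every family alike. Against LBRKO, 10 families were higher and 4 lower with the mean copy, with a median of 0.07 against −0.18 over all families, and 0 were higher and 11 lower with the median gene, with a median of −0.09 against −0.33.

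QKO and TKO were compared in EpiLCs on the relative scale. None of the 27 families, and 0% of all families, passed limma's adjusted test, and the changes ran from −0.21 to 0.06. Of the 27, 6 had an unadjusted p under 0.05, which was not counted over all families. QKO was higher than LBRKO at 14 families and lower at 0, beside 17.2% and 6.37% of all families, with a median of 0.14. The count of 14 was 9 without EpiLC LBRKO replicate 1, 6 with the median over copies and 8, all lower, with the median gene as divisor, by which 939 of all 1241 families were lower.

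Whether a genotype acted differently at the 2 stages was tested as an interaction. The LBRKO effect was less negative in EpiLCs at 7 of 27 families and more negative at 0, beside 13.5% and 12.3% of all families, and the 7 became 17 with the mean copy and 27 with the median gene, beside 342 and 998 of all 1241 families. The TKO effect was lower in EpiLCs at 19 families and higher at 0, beside 16.1% and 2.01% of all families, with a median of −0.24. With the median gene as divisor 6 families were higher and 0 lower, with a median of 0.07, while 901 of all 1241 families were higher, with a median of 0.27. The QKO effect was higher in EpiLCs at 7 families and lower at 7, beside 23.7% and 29.3%, but at 14 and 1 with the mean copy and at 25 and 0 with the median gene, where 785 and 1088 of all 1241 families were higher. On the main relative scale, the fall at ERVB4_3-I_MM and ERVB4_3-LTR_MM was smaller in EpiLCs, by 0.39 ± 0.10 and 0.45 ± 0.07 (adjusted p = 2.5e-03 and 5.5e-05), and the rise at ERVB3_1-LTR_MM was smaller, by −0.43 ± 0.07 (adjusted p = 5.9e-05). With the median over copies in place of the mean, 0, 1 and 1 families passed for the 3 genotypes.

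The stage itself changed little in WT cells. Relative LAP2B was lower in EpiLC than in naive WT at 5 of 27 families and higher at 2, beside 12.6% and 14.2% of all families. ETnERV3-int and MMETn-int were the 2 higher families, by 0.15 ± 0.04 and 0.13 ± 0.05 (adjusted p = 0.018 and 0.04), and the lower families were ERVB2_1-I_MM, ERVB2_1A-I_MM, ERVB3_1-LTR_MM, ERVB5_1-I_MM and ERVB7_4-LTR_MM, by −0.20 to −0.09. With the median gene as divisor all 27 were lower, as were 1171 of all 1241 families. The count of 7 was 2 without naive WT replicate 1 or EpiLC WT replicate 2 and 4 without naive WT replicate 2. For LMNB1, 0 of 27 families passed limma's adjusted test, beside 0.886% of all families called in either direction, and 9 had an unadjusted p under 0.05. For IGG 0 of 27 passed, beside 0.161% of all families, and 3 had an unadjusted p under 0.05. These unadjusted counts were not made over all families.

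On the spike-in scale LAP2B fell at all 27 families in naive TKO and in QKO at both stages, as it did at nearly every TE family. This scale is RPKM multiplied by a factor that falls as yeast reads rise. A library's level on it therefore also depends on sequencing depth, and the part of depth was not tested. In naive TKO 27 families were lower, beside 99.2% of all families, with a median of −0.90 against −1.02. In naive QKO 27 were lower beside 99.7%, with a median of −1.86 against −1.76, and in EpiLC QKO 27 were lower beside 99.8%, with a median of −1.15 against −1.06. Deposited naive LAP2B levels at ERVB4_3-I_MM were 1.21, 1.92 and 1.36 for the WT libraries. The LBRKO libraries had 0.640, 0.741 and 0.844, the TKO libraries 0.520, 0.725 and 0.688, and the QKO libraries 0.22, 0.196 and 0.216. The levels of LBRKO and TKO overlapped each other and lay between those of WT and QKO. ETnERV-int showed the same order with less distance. Its WT libraries had 1.1, 1.54 and 1.27, its LBRKO libraries 0.760, 0.935 and 1.06, its TKO libraries 0.654, 0.938 and 0.773, and its QKO libraries 0.386, 0.308 and 0.386. Deposited IGG in naive WT was 0.192, 0.139 and 0.234 at ERVB4_3-I_MM, a range that takes in the QKO levels. At ETnERV-int it was 0.268, 0.176 and 0.280, below the QKO levels. IGG was scaled on its own and not made from QKO cells, so the part of background in the QKO levels was not tested.

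The remaining spike-in comparisons rested on few libraries. In naive LBRKO 10 of 27 families were lower, beside 9.51%, with a median of −0.53 against −0.19. That count was 0 without LBRKO replicate 1 or without WT replicate 2, and 2 without LBRKO replicate 2. In EpiLC TKO 3 were lower, beside 11.6%, which became 26 without TKO replicate 1 or WT replicate 2 and 0 without any other of these libraries. Reads over these families were 281627, 400298 and 456539 in EpiLC TKO replicates 1 to 3 and 342287, 442423 and 293191 in EpiLC WT. By these reads, which are not the depth of the whole library, TKO replicate 1 was the shallowest of its group and WT replicate 2 the deepest. Whether depth moved the count of families called in EpiLC TKO was not tested. In EpiLC LBRKO 0 passed limma's adjusted test, beside 0.0806% of all families called in either direction. Of the 27, 4 had an unadjusted p under 0.05, which was not counted over all families.

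LMNB1 in WT cells, measured in libraries of its own, was set beside the LAP2B changes. Families with more LMNB1 over IGG had a more negative, or less positive, change of relative LAP2B from WT in each mutant. Across the 27 families, Pearson's r between WT LMNB1 over IGG and the LAP2B change was −0.53 for LBRKO, −0.57 for TKO and −0.68 for QKO in naive cells, and −0.52, −0.80 and −0.82 in EpiLCs (Spearman's rho −0.55, −0.53, −0.65, −0.49, −0.84 and −0.85). Over all 1241 families r was −0.53, −0.70 and −0.74 in naive cells and −0.38, −0.74 and −0.79 in EpiLCs. Families are not independent replicates, they share libraries and may share base composition and mappability, so these values are descriptions. ERVB4_1-I_MM lay off the trend, with LMNB1 over IGG at percentile 30.8 in naive cells and the second largest LBRKO fall.

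**Figure D3:**
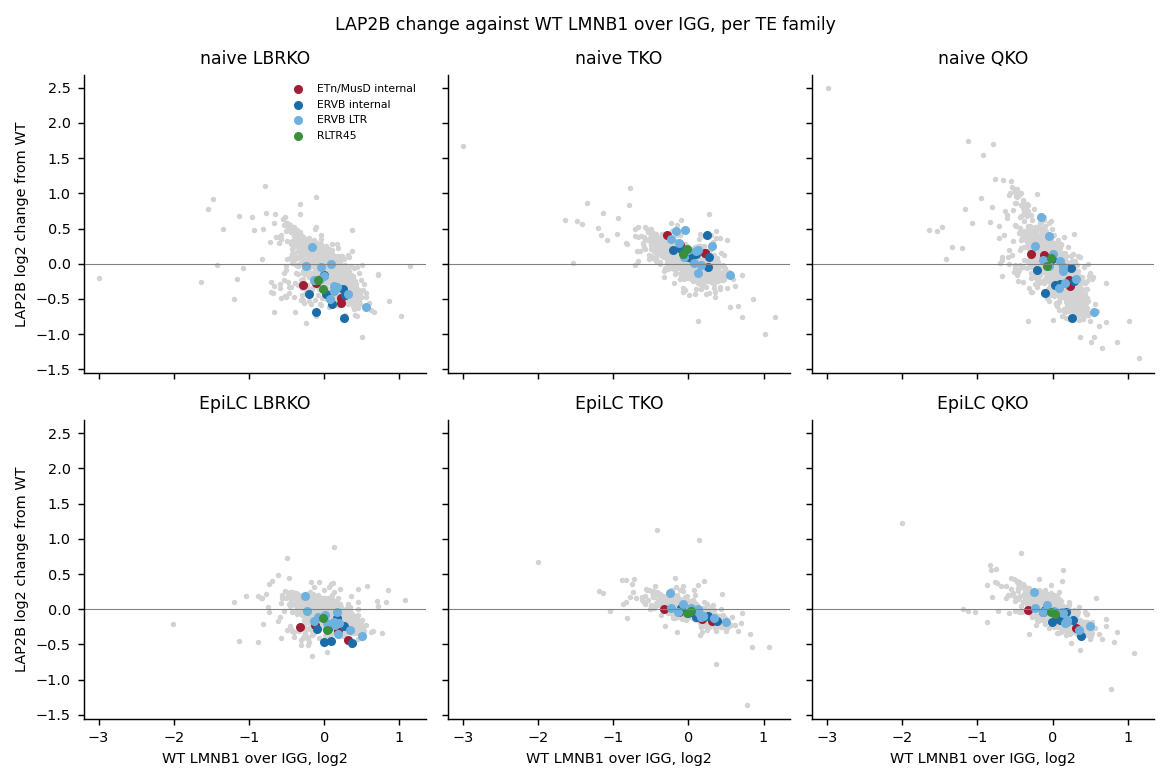
LAP2B change from WT (log2, relative scale, y axis) against WT LMNB1 over IGG of the same stage (log2, x axis) for the 27 families (coloured by group) and all other TE families (grey), with 1 panel for each mutant and stage. The coloured points slope downward in all 6 panels, with r from −0.52 to −0.82, and the position of a whole cloud against 0 moves with the divisor.

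The same comparison was made copy by copy, since copies of 1 family differed widely. Within a family, naive WT LAP2B at percentile 90 of the copies was 4.19 times (ERVB3_1-LTR_MM) to 12.5 times (ETnERV-int) that at percentile 10, a spread that includes copy length. All TE copies were divided at the quartiles of WT LMNB1 over IGG into 4 classes, from class 1 with the least to class 4 with the most, and 14.2%, 30.2%, 32.2% and 23.4% of the naive copies of these families fell into classes 1 to 4.

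In every naive mutant the LAP2B change was more negative, or less positive, in each higher class. In QKO the relative change of the mean copy of these families was 0.99 ± 0.12 (SE over libraries) in class 1, 0.26 ± 0.07 in class 2, −0.25 ± 0.02 in class 3 and −0.66 ± 0.01 in class 4, and QKO libraries did not overlap WT in any class. All TE copies spanned a wider range, from 1.57 ± 0.14 to −0.84 ± 0.05. In LBRKO the changes were 0.13 ± 0.14, −0.24 ± 0.09, −0.48 ± 0.03 and −0.57 ± 0.03, whereas all TE copies had 0.69 ± 0.14, 0.38 ± 0.05, −0.12 ± 0.02 and −0.46 ± 0.07. In class 2, then, LBRKO libraries lay below WT for these families and above WT for all copies together. In TKO the changes were 0.56 ± 0.11, 0.39 ± 0.07, 0.19 ± 0.06 and 0.01 ± 0.08, against 0.75 ± 0.13, 0.30 ± 0.05, −0.05 ± 0.02 and −0.28 ± 0.07 for all copies. In the class with most LMNB1, TKO libraries overlapped WT for these families and lay below WT for all copies. The classes were made after the values had been seen, and no test was made of the difference from other copies.

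The groups were also taken apart. Naive ETn/MusD internal copies in class 4 changed by −0.65 ± 0.03 in LBRKO and −0.70 ± 0.02 in QKO, and ERVB internal copies by −0.66 ± 0.02 and −0.73 ± 0.02. The ERVB LTR copies of that class changed by −0.48 ± 0.03 and −0.66 ± 0.02. RLTR45 copies had the smallest QKO fall in class 4, −0.43 ± 0.04. In EpiLCs the class 4 changes of all these copies together were −0.32 ± 0.04 for LBRKO, −0.28 ± 0.05 for TKO and −0.41 ± 0.05 for QKO. The corresponding class 1 changes were −0.09 ± 0.06, 0.25 ± 0.06 and 0.34 ± 0.06. The order by class ended at class 3 in EpiLC LBRKO, where the change was −0.33 ± 0.03.

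**Figure D4:**
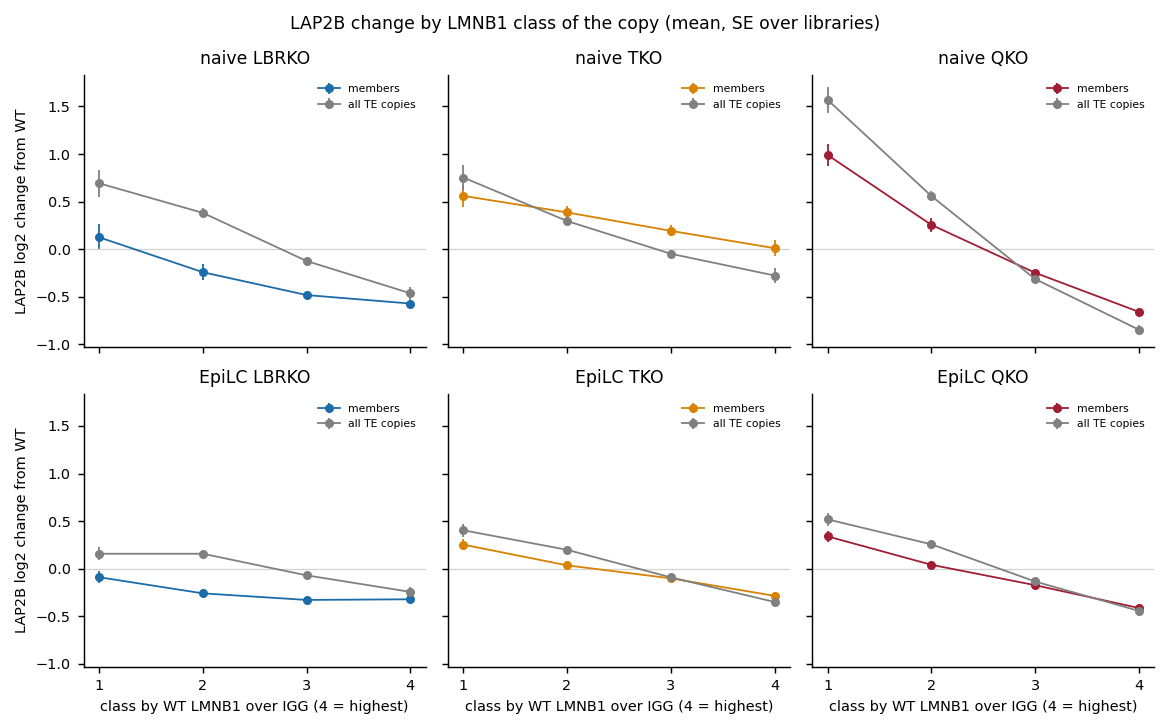
LAP2B change from WT (log2, relative scale, y axis; bars are SE over 3 libraries a group) in 4 classes of copies ranked by WT LMNB1 over IGG (x axis, 4 is highest) for copies of the ERVB, ETn/MusD and RLTR45 families (coloured, called members) and for all TE copies (grey). The coloured line starts below the grey one in class 1 in all 6 panels, stays below it in every LBRKO class, and lies above it in classes 2 to 4 of naive TKO; the height of both lines against 0 depends on the divisor.

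Single copies were also counted, in the same libraries that gave the family means. The counts describe how copies vary and are not separate support for the family results. In naive cells, 28.2% of the copies of these families had all LBRKO libraries below all WT libraries and 5.67% had all above, beside 17.9% and 20.1% of all TE copies. In EpiLCs the shares were 21.7% and 4.85%, beside 11.4% and 11.5%. ERVB internal copies had the highest share below in naive LBRKO, 35.0%, and ERVB LTR copies the lowest, 23.6%. Naive TKO had 6.15% below and 15.6% above, beside 8.76% and 15%, and naive QKO had 23.6% and 14.1%, beside 22.6% and 26%. In EpiLCs the shares were 9.31% and 6.74% for TKO, beside 7.99% and 10.1%, and 13.1% and 8.23% for QKO, beside 10.3% and 15%. With the median gene as divisor, 43.3% of the copies were below WT in naive LBRKO, beside 27.6% of all TE copies, and in naive TKO 19.8% were below and 5.09% above, beside 23.7% and 5.70%.

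Values of 4 single copies are given as examples. In each group the copy with the highest mean naive WT LAP2B was taken, leaving out copies above percentile 99 for naive IGG; because WT values chose them, lower mutant values in naive cells support nothing. ETnERV2-int_dup766, as the tables name it, had relative LAP2B of 9.07, 9.49 and 10.1 in naive WT cells. Its naive LBRKO libraries had 3.44, 3.84 and 5.75, the TKO libraries 18.2, 12.7 and 15.9, and the QKO libraries 6.96, 6.75 and 7.59. Its TKO libraries lay above every WT library on this scale, and those of the other mutants below. On the spike-in scale its TKO libraries, with 4.67, 5.31 and 4.73, lay below the WT libraries, with 5.34, 8.77 and 6.50. In EpiLCs, whose values did not enter the choice, this copy had 4.83, 3.63 and 1.62 in WT, and all mutant groups overlapped WT. Its LMNB1 was 6.68, 8.15 and 8.10 and its IGG 3.58, 3.97 and 2.69 in naive cells.

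The other copies were lower in naive LBRKO and QKO than in WT. ERVB4_1B-I_MM_dup1408 had 5.85, 7 and 5.91 in naive WT, and the 9 mutant libraries lay between 1.02 and 3.61. ERVB7_3-LTR_MM_dup17 had 9.76, 8.11 and 6.04 in naive WT, with 4.16, 2.73 and 4.93 when LBR was absent, 7.33, 6.62 and 7.41 for TKO and 4.28, 2.98 and 2.03 for QKO. TKO overlapped WT at this copy, as it did at RLTR45_dup315, where naive WT libraries had 5.80, 6.80 and 8.51. There LBRKO libraries had 4.27, 3.36 and 4.77, TKO libraries 6.34, 5.39 and 6.74, and QKO libraries 2.14, 2.25 and 2.97. In EpiLCs this copy was again lowest in QKO, with 1.91, 1.86 and 1.78 against 3.16, 3.17 and 5.59 in WT. Its EpiLC LBRKO libraries, with 5.88, 5.70 and 4.33, were not below WT as the naive ones were.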

How the data were processed

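Per the study's methods and the submitters' processing notes, the authors aligned CUT&RUN read pairs to GRCm39 with Bowtie2 2.3.5.1, filtered them with SAMtools 1.10, computed RPKM coverage in bins with deepTools and multiplied it by a spike-in factor from yeast DNA. The deposited tables hold this signal summed over the bins a TE copy touches, not divided by length. Duplicates were removed and only primary alignments were kept, so reads of near-identical copies may be placed at any one of them. At least 99.9994% of values in each library were whole multiples of 1 step (within 0.05 of a step), taken as 1 read, which gives bins of 1 kb where the methods name 10 kb for TEs; the median copy had 8 to 29 reads. Because the values are coverage, no count test was run and no counting interval is given. An authors' column of modified z scores was not used, and 2 H3K9me3 samples were not analysed here.

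Family values are means over copies. All were divided by the library's median family (relative scale) or left as deposited (spike-in scale), a pseudocount of 0.1 of the median family was added, and log2 values were tested two-sided with limma 3.58.1 in R 4.3.3 (lmFit on 8 LAP2B group means, eBayes with trend, no replicate block; separate models for LMNB1 and IGG). For LAP2B, 1 spread per family, shared by all 8 groups, gave the SE and p-value of every comparison, whichever groups were compared. The Benjamini-Hochberg adjustment covered all 1241 families. On simulated data for naive QKO against WT over 1241 families, 98% of families changed by −0.5 and 96% of those changed by 0.5 (log2) were called, and 7 of 1041 unchanged ones. The simulated noise was independent between families, with the same spread in every group, and most families were left unchanged. In the data 983 of 1241 families were called in this comparison. No change smaller than 0.5 was simulated, so these rates do not give the error of the calls above. LMNB1 classes used a pseudocount of 0.25 of the median copy. Families given in every library are those the study's text names plus the ETn/MusD internal families, and, in each mutant, the 2 called families of at least 50 copies with the largest fall and the 2 with the largest rise; ERVB3_1-LTR_MM and ERVB4_2-LTR_MM come from this rule. The families and lists were chosen with earlier results of these data known. Alternatives were another pseudocount (0.01 or 1), families of at least 100 copies, the median over copies, copies above IGG percentile 99 left out, division by the mean copy or the median gene, a replicate block, only the groups compared, and leaving out each library.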

Additional observations from a re-analysis of the deposited data

Results flagged for a closer look

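Differences between naive cells and EpiLCs in the effect of a genotype, tested as limma interactions on the relative scale with Benjamini-Hochberg adjustment over all 1241 families, are singled out here. The LBRKO effect differed between stages at 7 of the 27 families, the TKO effect at 19 and the QKO effect at 14, beside 321, 225 and 657 of all 1241 families. For LBRKO and QKO these are close to the share of all families. For LBRKO the difference (EpiLC minus naive, log2) was 0.30 at ERVB4_3-I_MM and 0.19 at ETnERV2-int, where the fall was smaller in EpiLCs. For TKO it was −0.40 at ETnERV-int, −0.29 at ETnERV2-int, −0.31 at ETnERV3-int, −0.30 at MMETn-int and −0.23 at RLTR45-int. For QKO it was 0.39 at ERVB4_3-I_MM, −0.15 at RLTR45-int and −0.17 at MMETn-int. Naive WT and EpiLC WT libraries enter these values with opposite signs for all 3 genotypes, so the genotypes share controls. Dividing by the median gene shifts all families alike, to a median stage difference of 0.27 for TKO and 0.42 for QKO. With it the TKO difference was 0.013 at ETnERV2-int, 0.0064 at MMETn-int and 0.074 at RLTR45-int, and the QKO difference 0.29 at RLTR45-int and 0.27 at MMETn-int. With the median over copies in place of the mean, 0, 1 and 1 families were called for LBRKO, TKO and QKO.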

How the results depend on the processing

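The counts below are of the 27 families called in either direction, unless said otherwise. Dividing by the median gene shifted all families alike, to a median of −0.36, −0.46 and −0.70 in naive LBRKO, TKO and QKO, of −0.07, −0.19 and −0.27 in EpiLCs, and of 0.29, 0.27 and 0.42 for the LBRKO, TKO and QKO effects between stages, so the counts and signs under it include this shift. It reversed the direction for naive TKO (24, all lower), QKO against LBRKO (11 in naive cells and 8 in EpiLCs, all lower) and the stage difference of the TKO effect (6, all higher), and it gave 24 for EpiLC TKO, 26 for EpiLC QKO, 27 for the LBRKO effect between stages (all higher), 25 for the QKO effect (all higher) and 27 for the WT stage comparison, where 919, 1091, 1000, 1115 and 1177 of all 1241 families were called. The median over copies gave 10 for naive TKO, 0 for EpiLC TKO, 3 for EpiLC QKO, 6 for EpiLC QKO against LBRKO, 0, 1 and 1 for the stage differences of the LBRKO, TKO and QKO effects, 0 for the WT stage comparison and 17 for naive LBRKO on the spike-in scale, and the median naive LAP2B over IGG became 0.079. Counts over all families are not given for the median over copies, so a loss of calls cannot be assigned to these families. Dividing by the mean copy gave 14 for EpiLC TKO, 14 for naive QKO against LBRKO and 17 for the LBRKO effect between stages, where 464, 997 and 408 of all 1241 families were called. With only the groups compared the counts were 2 for EpiLC QKO against TKO, 3 for the WT stage comparison, and on the spike-in scale 1 for naive LBRKO and 0 for EpiLC TKO. For the last, a pseudocount of 1 gave 7 and the replicate block 0. The replicate block moved no other count by more than 1.5 times, and replicate numbers were not taken to pair libraries, since same-numbered LAP2B libraries of different groups had deviations with r from −0.31 to 0.27 and 6 of 24 libraries were most like those of their own number.

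Copies without overlap changed with the divisor. With the median gene, 6859 copies were below and 429 above WT in naive LBRKO, 3137 and 806 in naive TKO, 7768 and 833 in naive QKO, 2556 and 546 in EpiLC TKO, and 3820 and 603 in EpiLC QKO. The shares of all TE copies were 27.6% and 12.2%, 23.7% and 5.70%, 42.4% and 14.8%, 13.0% and 5.70%, and 18.8% and 7.69% in the same order, beside 43.3% and 2.71%, 19.8% and 5.09%, 49.1% and 5.26%, 16.1% and 3.45%, and 24.1% and 3.81% of the copies of these families. On the spike-in scale 5040 were below and 571 above in naive LBRKO, 6736 and 114 in naive TKO, 12724 and 94 in naive QKO, 2919 and 138 in EpiLC TKO, and 9900 and 50 in EpiLC QKO. The shares below WT in the same order were 31.8%, 42.6%, 80.4%, 18.4% and 62.5%, beside 19.8%, 43.0%, 69.5%, 16.8% and 53.8% of all TE copies. The shares above were 3.61%, 0.72%, 0.594%, 0.872% and 0.316%, beside 14.3%, 0.863%, 2.86%, 1.33% and 0.362%.

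Leaving out 1 library at a time gave 2 to 9 for EpiLC TKO, 9 to 13 for EpiLC QKO against LBRKO, 2 to 7 for the WT stage comparison, 0 to 14 for naive LBRKO and 0 to 26 for EpiLC TKO on the spike-in scale, and medians over IGG of 0.050 to 0.14 for EpiLC LMNB1, 0.056 to 0.10 for EpiLC LAP2B, 0.013 to 0.074 for naive LMNB1 and 0.024 to 0.058 for naive LAP2B. Naive LBRKO stayed at 24.

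For single families, the median gene turned these changes: in naive TKO ERVB4_2-I_MM (−0.31), RLTR45-int (−0.29), ETnERV-int (−0.095), ETnERV2-int (−0.33), ETnERV3-int (−0.35), MMETn-int (−0.24), ERVB4_2-LTR_MM (−0.010) and ERVB3_1-LTR_MM (−0.021). In naive QKO it turned RLTR45-int (−0.62), ETnERV-int (−0.57), MMETn-int (−0.59), ERVB3_1-LTR_MM (−0.028) and ERVB4_2-LTR_MM (−0.30), and elsewhere ERVB3_1-LTR_MM in naive LBRKO (−0.10) and EpiLC QKO (−0.014). For the TKO effect between stages it turned RLTR45-int (0.074), ETnERV2-int (0.013) and MMETn-int (0.0064), and for the QKO effect RLTR45-int (0.29) and MMETn-int (0.27). The mean copy turned naive QKO at RLTR45-int (−0.17), ETnERV-int (−0.12) and MMETn-int (−0.13) and the QKO effect between stages at RLTR45-int (0.047) and MMETn-int (0.028). The median over copies turned RLTR45-int in naive TKO (−0.014), in naive QKO (−0.14) and for the QKO effect (0.070). Over all single-family results named in the text and their alternatives, the call was the same 789 times, the direction held without passing the test 68 times, and the direction reversed 28 times. Causes of these changes were not tested. Depth limits single copies, at a median of 8 to 29 reads, more than family means.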
